A study of Mus musculus with 8 samples.

Results

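Short nascent strand sequencing (SNS-seq) maps where DNA replication starts, and most initiation sites (ISs) in its lists stand for 1 peak in each replicate. The regions described here are the exceptions: autosomal ISs in which 3 or more replicate peaks were merged, called multi-peak ISs below. They were chosen by measured values, namely the number of peaks listed for each IS in the Rif1KO_shLacZ and Rif1KO_shMcm6 lists. The Rif1KO_shLacZ list held 882 of them among 98867 autosomal ISs (0.892%, Wilson 95% interval 0.835 to 0.953), and the Rif1KO_shMcm6 list held 1707 among 113626 (1.502%, 1.43 to 1.57). In the authors' merged table of both conditions, 2393 of 127312 autosomal ISs overlapped at least 1 of these list entries, 195 of them through both lists, 687 through the Rif1KO_shLacZ list alone and 1511 through the Rif1KO_shMcm6 list alone.

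All libraries came from CH12, a mouse B cell lymphoma line grown with IL4, CD40 and TGF beta stimulation. The 8 libraries form 4 groups of 2: WT, Rif1KO (cells lacking RIF1), Rif1KO_shLacZ (Rif1KO cells with a lentiviral hairpin against the bacterial gene LacZ, as control) and Rif1KO_shMcm6 (the same cells with a hairpin against Mcm6). Both hairpin groups therefore lack RIF1, replicates were separately thawed vials of the line, and the knockout cells are clonal. The merged tables hold 1 value per condition with both replicates pooled, 21071351 reads within ISs for Rif1KO_shLacZ and 23602750 for Rif1KO_shMcm6, so no spread between replicates exists for any density or fold change here. Depth and hairpin moved together, and the part of depth in the larger share of multi-peak ISs in Rif1KO_shMcm6 was not tested. Intervals below cover counting or sampling of ISs only, and no test across samples was possible.

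Replication starts where the MCM helicase, loaded on DNA in advance of S phase, is activated. MCM6 is a subunit of this helicase, and RIF1 is a chromosome-bound protein that controls when domains replicate. SNS-seq isolates short leading strands that begin with an RNA primer, which protects them from lambda exonuclease. Leading strands leave each origin in opposite directions, and runs of G that can fold into G-quadruplexes are a known sequence feature of SNS-seq sites.

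The motif counted here was 4 runs of GGG or longer separated by 1 to 7 bases of any kind. A plus-strand motif has the G runs on the reference strand, and a minus-strand motif reads as runs of CCC there. Each window below spans 300 bases of a multi-peak IS, printed 5′ to 3′ on the plus strand of mm9, with a minus-strand motif and the plus-strand motif that follows it in capitals. The first pair is shown because the whole IS carries plus, minus, plus and minus motifs in that order, which was rare. The second pair is shown because the motifs lie on either side of the middle of a gap between 2 separate ISs called there in the other hairpin list. Such a gap was seen at 557 of the list entries from which these were drawn, and a minus-then-plus pair close enough to print lay across it at 8.

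chr6:108609741-108610040: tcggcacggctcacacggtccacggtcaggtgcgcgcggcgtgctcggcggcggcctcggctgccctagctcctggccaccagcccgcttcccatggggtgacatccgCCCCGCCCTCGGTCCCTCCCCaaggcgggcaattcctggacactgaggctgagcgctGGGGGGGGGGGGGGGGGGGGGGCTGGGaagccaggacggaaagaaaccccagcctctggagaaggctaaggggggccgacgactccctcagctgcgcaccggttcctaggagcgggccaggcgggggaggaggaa
chr9:62617064-62617363: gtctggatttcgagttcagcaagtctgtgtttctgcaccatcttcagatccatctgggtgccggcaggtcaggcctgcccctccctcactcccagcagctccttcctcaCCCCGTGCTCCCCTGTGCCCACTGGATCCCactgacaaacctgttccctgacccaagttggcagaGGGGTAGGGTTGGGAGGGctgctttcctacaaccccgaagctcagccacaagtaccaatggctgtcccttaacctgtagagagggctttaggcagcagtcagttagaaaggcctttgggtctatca
chr14:75798969-75799268: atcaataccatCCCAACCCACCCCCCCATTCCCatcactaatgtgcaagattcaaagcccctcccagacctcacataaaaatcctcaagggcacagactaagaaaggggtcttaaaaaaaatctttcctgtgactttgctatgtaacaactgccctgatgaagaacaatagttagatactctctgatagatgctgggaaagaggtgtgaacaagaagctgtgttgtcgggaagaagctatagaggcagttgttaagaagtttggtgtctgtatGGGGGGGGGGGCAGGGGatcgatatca
chr6:117253508-117253807: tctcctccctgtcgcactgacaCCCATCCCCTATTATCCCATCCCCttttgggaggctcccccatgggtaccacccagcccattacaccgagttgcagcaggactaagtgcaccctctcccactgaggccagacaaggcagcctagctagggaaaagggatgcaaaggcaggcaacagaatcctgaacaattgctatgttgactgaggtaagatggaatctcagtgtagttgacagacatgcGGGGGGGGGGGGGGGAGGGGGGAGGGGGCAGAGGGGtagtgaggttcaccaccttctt

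The first window lies in a 1495 bp IS at chr6:108609603-108611097, at the promoter of Bhlhe40, a transcriptional repressor that also takes part in the circadian clock. Its density was 4.42 log2 RPM in Rif1KO_shLacZ and 4.14 in Rif1KO_shMcm6. The second lies in a 1015 bp IS at chr9:62616778-62617792 that overlaps an exon of Itga11, which codes for a collagen-binding integrin subunit. Here 2 ISs of the Rif1KO_shLacZ list fell inside 1 IS of the Rif1KO_shMcm6 list, with densities of 3.23 and 3.27 log2 RPM. The remaining pair, at chr14:75798175-75799580 and chr6:117252936-117254551, was intergenic, and in both the Rif1KO_shLacZ list had 1 multi-peak IS where the Rif1KO_shMcm6 list had 2 ISs. The inner ISs were 183 bp apart at the first of these and 187 bp apart at the second.

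The merging was nearly always uneven between replicates. The deposited count of listed peak names took only the values 2, 4 and 6, because names repeat, and these stand for 2, 3 and 4 distinct peaks, so a minimum of 3 selects the same ISs with either count. In the Rif1KO_shLacZ list 869 of the 882 multi-peak ISs joined 3 distinct peaks, meaning that 1 broad peak of one replicate met 2 peaks of the other, and 13 joined 4. In the Rif1KO_shMcm6 list 1659 joined 3 and 48 joined 4. The replicate with 2 peaks was replicate 1 at 57.5% of the 3-peak ISs in Rif1KO_shLacZ (500 against 369, 95% interval 54.2 to 60.8) and at 63.8% in Rif1KO_shMcm6 (1059 against 600, 61.5 to 66.1). Among ISs of 4 peaks, 11 of 13 and 40 of 48 had 2 peaks in each replicate. The highest peak number among the names was lower for replicate 1 in both lists, 148713 against 153248 for Rif1KO_shLacZ and 169793 against 175603 for Rif1KO_shMcm6.

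ISs of 3 or more peaks were also found where no hairpin was used, in lists that did not enter the choice. Those lists rest on fewer reads, 3724571 for Rif1KO and 3350255 for WT within ISs of their own merged table, and their multi-peak ISs were narrower, with medians of 892.5 and 877.5 bp, so shares and overlaps across lists are set beside a difference in depth whose part was not tested. The Rif1KO list held 298 multi-peak ISs of 33465 (0.890%, 0.795 to 0.997) and the WT list 134 of 25725 (0.521%, 0.440 to 0.617). The Rif1KO share lay within the interval of Rif1KO_shLacZ, while the WT interval lay below all others. By autosome the share ran from 0.667% on chromosome 5 to 1.15% on chromosome 7 in Rif1KO_shLacZ, and from 1.16% on chromosome 8 to 1.85% on chromosome 15 in Rif1KO_shMcm6, so every autosome carried such ISs in both lists.

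Multi-peak ISs were wide, as their definition favors. The median was 1178 bp in the Rif1KO_shLacZ list (quartiles 1014 and 1353, range 726 to 3652) against 528 bp for ISs of 2 peaks, and 1267 bp in the Rif1KO_shMcm6 list (1074 and 1467, range 727 to 3488) against 585 bp. ISs of 4 peaks had medians of 1772 and 1585 bp. Width alone did not define them: 2839 ISs of 2 peaks in Rif1KO_shLacZ and 6948 in Rif1KO_shMcm6 were also 1000 bp or wider, and multi-peak ISs made up 19.3% and 16.9% of all ISs that wide. These wide 2-peak ISs serve below as the comparison of like width.

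**Figure D1:**
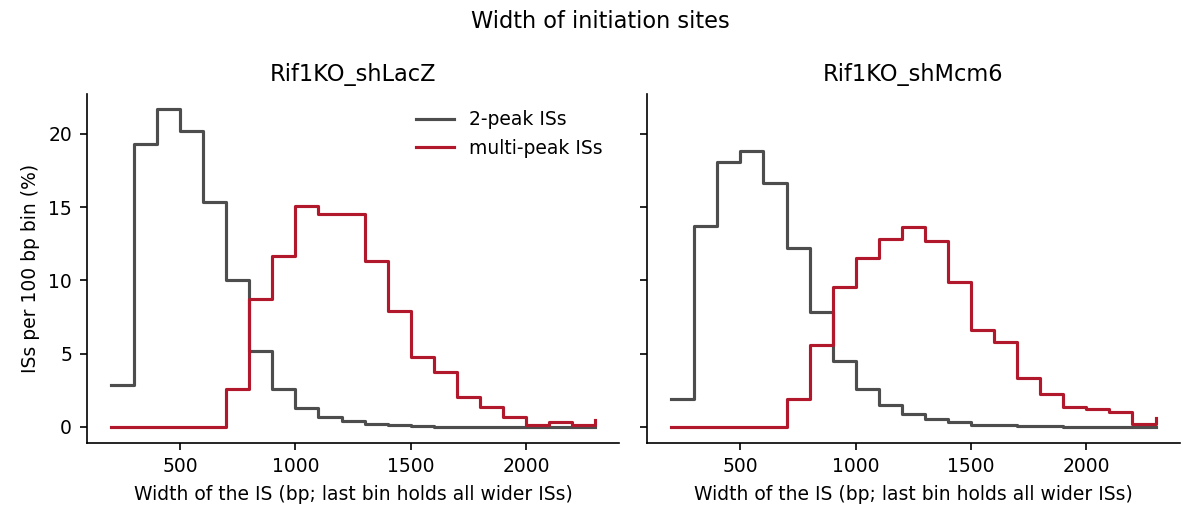
Share of autosomal ISs (%, y axis) per 100 bp bin of width (bp, x axis) in the Rif1KO_shLacZ and Rif1KO_shMcm6 lists, with multi-peak ISs in red and 2-peak ISs in grey. The distributions overlap between about 700 and 1700 bp, with medians of 1178 and 1267 bp for multi-peak ISs.

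The pooled densities followed width. Over the merged table the median density of multi-peak ISs was 3.74 log2 RPM in Rif1KO_shLacZ and 3.79 in Rif1KO_shMcm6 (13.3 and 13.9 RPM, medians of 281 and 327 reads), against 2.75 and 2.77 over all ISs (142 and 161 reads). Multi-peak ISs were 1.88% of the ISs and held 3.58% of the reads in Rif1KO_shLacZ and 3.67% in Rif1KO_shMcm6. Per kilobase the order turned round, with 10.6 RPM per kb for multi-peak ISs and 11.6 for all ISs in Rif1KO_shLacZ, and 10.8 and 11.4 in Rif1KO_shMcm6. Among merged ISs from 1000 to below 1300 bp, the 907 multi-peak ISs had a median of 3.59 log2 RPM in Rif1KO_shLacZ and the 6456 others 3.73. At the threshold itself, ISs with 2 distinct peaks in the Rif1KO_shLacZ list had a median density of 2.91 log2 RPM in that condition, those with 3 had 3.85 and those with 4 had 4.43. Because peak calls chose the members, these values are a description.

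At most multi-peak loci the other hairpin list had a single IS. Of the 882 multi-peak ISs of Rif1KO_shLacZ, 465 (52.7%) met 1 IS of 2 peaks in the Rif1KO_shMcm6 list, 195 (22.1%) met a multi-peak IS, 140 (15.9%) met 2 or more ISs and 83 (9.41%) met none. Of the 1707 of Rif1KO_shMcm6, 806 (47.2%) met 1 IS of 2 peaks in the Rif1KO_shLacZ list, 196 (11.5%) a multi-peak IS, 441 (25.8%) 2 or more ISs and 271 (15.9%) none. An IS that met several can also have met a multi-peak one, so these counts overlap slightly.

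Where each list had exactly 1 IS, the widths differed by source. At 805 loci that were multi-peak in Rif1KO_shMcm6 alone the median width was 680 bp in Rif1KO_shLacZ and 1196 bp in Rif1KO_shMcm6, a median ratio of 1.87. At 463 loci that were multi-peak in Rif1KO_shLacZ alone the medians were 1115 and 1138 bp (ratio 1.01), at 188 loci multi-peak in both 1238 and 1291 bp (1.04), and at 81796 other loci 539 and 617 bp (1.10). Loci multi-peak in Rif1KO_shMcm6 alone were thus much narrower in Rif1KO_shLacZ, whereas loci multi-peak in Rif1KO_shLacZ alone were wide in both lists. No test was made of these widths, since the lists chose the members.

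Multi-peak ISs covered several ISs of the other hairpin list more often than 2-peak ISs of like width. From 1000 to below 1300 bp the share was 14.9% (58 of 389, 95% interval 11.7 to 18.8) against 1.97% (1.48 to 2.61) in Rif1KO_shLacZ, and 18.3% (119 of 649, 15.5 to 21.5) against 1.60% (1.30 to 1.96) in Rif1KO_shMcm6. From 1300 to below 1700 bp it was 24.5% (19.5 to 30.2) against 5.29% (3.52 to 7.88), and 37.2% (33.4 to 41.1) against 10.2% (8.63 to 12.0). The intervals did not overlap in any of these 4 comparisons. Both hairpin lists served to choose the members, although the number of ISs in the other list was not itself a criterion.

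**Figure D2:**
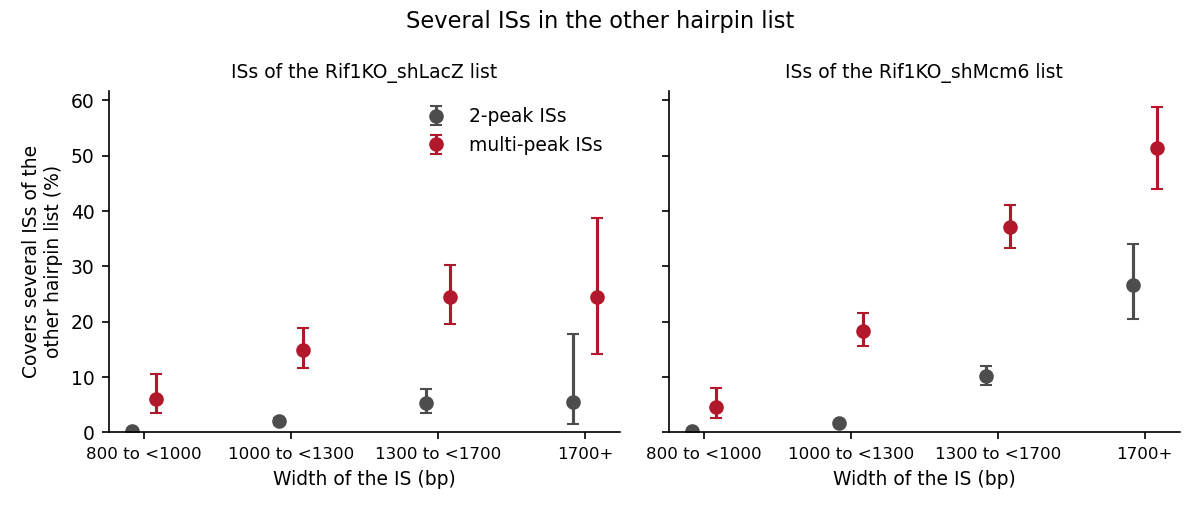
Share of ISs (%, y axis) that cover 2 or more ISs of the other hairpin list, by width class (bp, x axis), for multi-peak ISs in red and 2-peak ISs in grey; bars are Wilson 95% intervals. The red points lie above the grey points in each of the plotted classes, 800 bp and wider, for example 14.9% against 1.97% from 1000 to below 1300 bp in Rif1KO_shLacZ.

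Against the lists of cells without a hairpin, the contrast at like width was smaller and differed by class. From 1000 to below 1300 bp, 5.91% of multi-peak ISs of Rif1KO_shLacZ covered several ISs of the Rif1KO list (23 of 389, 3.97 to 8.72), against 4.90% of 2-peak ISs (4.11 to 5.84). For the Rif1KO_shMcm6 list the shares were 2.93% (1.88 to 4.53) and 1.82% (1.497 to 2.202). From 1300 to below 1700 bp they were 24.1% (19.2 to 29.8) and 14.9% (11.8 to 18.6) for Rif1KO_shLacZ, where the intervals did not overlap, and 8.21% (6.26 to 10.7) and 9.22% (7.73 to 11.0) for Rif1KO_shMcm6. Against the WT list the intervals overlapped in all 4 of these comparisons.

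The gap between 2 inner ISs lay near the middle of the multi-peak IS. Only loci with exactly 2 inner ISs were counted, which by itself ties the gap to the middle. Inside multi-peak ISs of Rif1KO_shMcm6, the gap between 2 ISs of the Rif1KO_shLacZ list had a median of 288 bp (quartiles 201 and 404, 441 loci), and its centre lay between 43.5% and 56.1% of the width of the multi-peak IS from its left end (quartiles). Inside those of Rif1KO_shLacZ, the gap between 2 ISs of the Rif1KO_shMcm6 list had a median of 207 bp (165 and 258.8, 140 loci), with its centre between 43.4% and 55.8% of the width (quartiles). The inner ISs themselves had median widths of 506 and 567.5 bp, close to the medians of 528 and 585 bp of 2-peak ISs in those lists. With ISs of the Rif1KO list the gaps were 401.5 and 340 bp, and with those of WT 438 and 389.5 bp.

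Run-of-G motifs were present in nearly all multi-peak ISs. At least 1 motif occurred in 91.6% of them in Rif1KO_shLacZ (808 of 882) and in 91.7% in Rif1KO_shMcm6 (1565 of 1707), against 78.9% and 76.3% of 2-peak ISs. Windows of the same length placed 5 kb to either side held a motif in 21.0% and 21.3% of cases for multi-peak ISs. Per kilobase, multi-peak ISs had 2.06 and 1.95 motifs and 2-peak ISs 2.39 and 2.12, while their flanking windows had 0.289 and 0.270. At like width the shares with a motif were closer, 92.03% (88.9 to 94.3) and 90.2% (88.9 to 91.3) from 1000 to below 1300 bp in Rif1KO_shLacZ and 91.2% (88.8 to 93.2) and 88.5% (87.7 to 89.3) in Rif1KO_shMcm6. From 1300 to below 1700 bp they were 93.5% (89.7 to 95.9) and 90.4% (87.2 to 92.9), and 94.97% (92.9 to 96.5) and 90.6% (88.8 to 92.1), where the intervals of Rif1KO_shMcm6 did not overlap.

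The strand of the motifs differed from place to place inside the IS. Over all 2-peak ISs, plus-strand motifs were most frequent 225 bp left of the centre (7.04% of bases in Rif1KO_shLacZ and 6.05% in Rif1KO_shMcm6) and minus-strand motifs 225 bp right of it (7.002% and 6.08%). Ordinary ISs were thus bracketed by plus-strand motifs on the left and minus-strand motifs on the right. Multi-peak ISs showed this bracket and a second one inside it. In Rif1KO_shLacZ, plus-strand motifs peaked 525 bp left of the centre (6.43% of bases), minus-strand motifs 125 bp left (3.599%), plus-strand motifs 125 bp right (3.44%) and minus-strand motifs 475 bp right (5.69%). In Rif1KO_shMcm6 the corresponding peaks lay at 475 bp left, 125 bp left, 175 bp right and 625 bp right, with 4.65%, 3.003%, 3.22% and 4.69% of bases. From left to right the order was plus, minus, plus, minus, which is that of 2 ordinary ISs placed side by side. In every multi-peak IS at least 1 replicate had 2 or more peaks. This averaged order is therefore tied to the choice of the members and is a description.

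**Figure D3:**
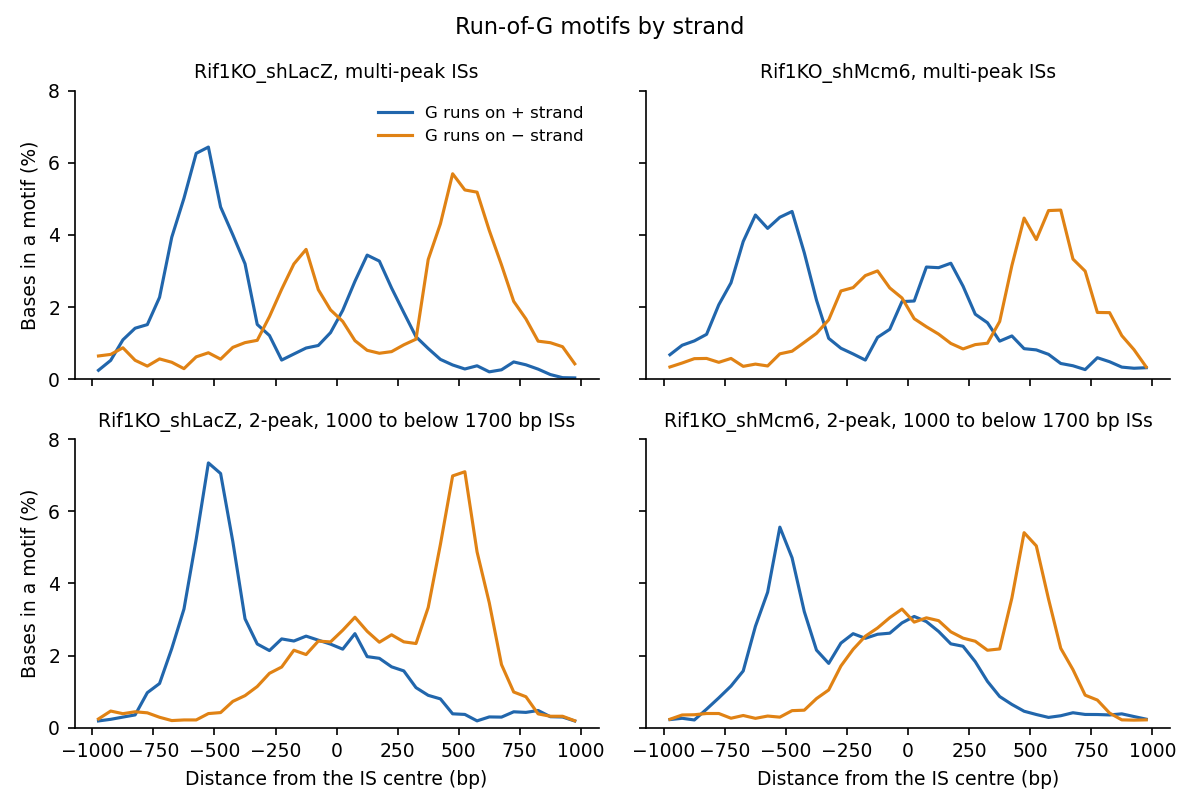
Share of bases inside a run-of-G motif (%, y axis) by distance from the IS centre (bp, x axis, 50 bp bins), with plus-strand motifs in blue and minus-strand motifs in orange, for multi-peak ISs (top) and 2-peak ISs from 1000 to below 1700 bp (bottom) in the 2 hairpin lists. In the top panels the orange line peaks left of the centre and the blue line right of it, 3.599% and 3.44% of bases in Rif1KO_shLacZ, while in the bottom panels both inner lines run over the centre and overlap, with peaks of similar height (3.29% and 3.09% of bases, 25 bp to either side of the centre, in Rif1KO_shMcm6).

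Wide 2-peak ISs had the outer bracket too, and inside it motifs of both strands on each side of the centre. From 1000 to below 1700 bp, and 175 bp left of the centre, minus-strand motifs took 2.15% of bases and plus-strand motifs 2.40% in Rif1KO_shLacZ, against 3.195% and 0.701% in multi-peak ISs. In Rif1KO_shMcm6 the values were 2.54% and 2.48% in wide 2-peak ISs and 2.87% and 0.532% in multi-peak ISs.

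Counted per IS, an inner motif was called outward where a minus-strand motif lay 50 to 300 bp left of the centre or a plus-strand motif as far to the right, and inward for the opposite strands. From 1000 to below 1300 bp outward motifs occurred in 38.8% of multi-peak ISs of Rif1KO_shLacZ (151 of 389, 95% interval 34.1 to 43.7) and in 22.8% of 2-peak ISs (21.1 to 24.5). In Rif1KO_shMcm6 the shares were 35.1% (228 of 649, 31.6 to 38.9) and 23.1% (22.0 to 24.2). Inward motifs were less frequent in multi-peak ISs, 9.51% (6.98 to 12.8) against 28.3% (26.6 to 30.2), and 13.9% (11.4 to 16.7) against 29.6% (28.4 to 30.8). These intervals did not overlap in either list. Sequence took no part in the choice of the members, but the 50 to 300 bp limits were set after the strand profile of the same ISs had been seen, so the counts restate that profile per IS and are no separate support for it. From 1300 to below 1700 bp the outward shares were alike, 34.7% and 34.6% in Rif1KO_shLacZ and 32.8% and 31.3% in Rif1KO_shMcm6, and the inward shares again lay apart, 11.8% (8.37 to 16.5) and 28.1% (24.0 to 32.6), and 13.7% (11.2 to 16.7) and 27.0% (24.6 to 29.6).

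The same counts were taken for multi-peak ISs of the Rif1KO and WT lists. From 800 to below 1000 bp, inward inner motifs occurred in 15.1% of 119 multi-peak ISs of Rif1KO (9.79 to 22.6) against 41.6% of 2-peak ISs (38.4 to 44.9), and in 26.9% of 52 of WT (16.8 to 40.3) against 46.2% (41.6 to 50.8). Outward ones occurred in 31.9% (24.2 to 40.8) against 24.1% (21.4 to 27.1) in Rif1KO and in 40.4% (28.2 to 53.9) against 39.7% (35.3 to 44.3) in WT, with overlapping intervals. Between 1000 and 1300 bp the multi-peak ISs numbered 71 in Rif1KO and 32 in WT. Inward motifs occurred in 18.3% (11.0 to 28.8) against 40.6% (34.2 to 47.2) in Rif1KO and in 37.5% (22.9 to 54.7) against 47.9% (39.1 to 56.8) in WT, and outward ones in 23.9% against 31.8% and in 34.4% against 38.7%, so the higher outward share of the hairpin lists was not seen there. The complete order plus, minus, plus, minus within a single IS was rare in the hairpin lists, 4 of 882 and 5 of 1707 multi-peak ISs, so the pattern is one of the average over many ISs. At like width it was no more frequent than in 2-peak ISs beyond the counting intervals, 0.816% (0.224 to 2.93) and 0.962% (0.375 to 2.45) from 1300 to below 1700 bp in Rif1KO_shLacZ and 0.335% (0.0919 to 1.21) and 0.163% (0.0448 to 0.593) in Rif1KO_shMcm6. A minus-strand motif directly followed by a plus-strand motif, anywhere in the IS, was less frequent in multi-peak ISs of that class in Rif1KO_shLacZ, 6.53% (4.06 to 10.3) against 13.7% (10.7 to 17.3), while in Rif1KO_shMcm6 the shares were 9.55% and 9.47%. In the class from 1000 to below 1300 bp they were 5.66% (3.76 to 8.41) against 4.65% (3.88 to 5.57) and 5.86% (4.30 to 7.93) against 3.16% (2.74 to 3.66).

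GC content was slightly higher in multi-peak ISs than over all ISs and slightly lower than in other ISs of like width. The median was 45.6% for multi-peak ISs of the merged table (95% interval 45.3 to 45.9) and 44.5% for all ISs. In the class from 1000 to below 1300 bp the order turned, with 45.3% (44.8 to 45.8) against 46.8% (46.6 to 47.0) for other ISs, and from 1300 to below 1700 bp it was 45.9% (45.5 to 46.3) against 48.0% (47.5 to 48.4). Repeats of CA or its complement TG over at least 10 units occurred in 6.39% of multi-peak ISs (5.48 to 7.45) and 3.76% of others (3.65 to 3.86), but the contrast at like width was not the same in each class: 3.63% (2.09 to 6.23) and 3.66% (3.38 to 3.95) from 800 to below 1000 bp, 6.50% (5.08 to 8.30) and 4.31% (3.84 to 4.83) from 1000 to below 1300 bp, and 7.27% (5.72 to 9.19) and 5.89% (4.75 to 7.28) from 1300 to below 1700 bp.

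Multi-peak ISs lay at promoters and exons more often, and in introns less often, than all ISs, but from 1000 to below 1700 bp their promoter share was not above that of other ISs. Among ISs of the merged table, a share of 64.2% (62.2 to 66.1) overlapped no protein-coding gene and no window of 1 kb about a start site, against 62.6% of all ISs. A further 23.1% (21.5 to 24.8) were intronic, against 28.8%, and 5.60% (4.75 to 6.59) exonic, against 4.18%. Promoters, within 1 kb of a start site, held 7.10% of them (170, 6.14 to 8.20) and 4.43% of all ISs. The promoter share also moved with width: from 1000 to below 1300 bp it was 6.39% (4.98 to 8.18) for multi-peak and 7.51% (6.89 to 8.18) for other ISs, from 1300 to below 1700 bp 7.96% (6.34 to 9.95) and 11.5% (9.89 to 13.3), in the opposite order to that over all widths. Exonic shares had overlapping intervals at like width, 4.74% (3.54 to 6.33) and 5.86% (5.31 to 6.45) in the narrower of these classes and 6.46% (5.01 to 8.29) and 8.43% (7.06 to 10.03) in the wider. Intronic shares were 22.8% (20.2 to 25.7) and 26.5% (25.4 to 27.6) in the narrower and 24.6% and 24.7% in the wider. Shares outside genes and start-site windows were higher for multi-peak ISs in the narrower class, 66.04% (62.9 to 69.1) against 60.2% (59.0 to 61.3), and 61.02% (57.7 to 64.2) against 55.4% (52.7 to 58.0) in the wider.

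Fold changes after MCM6 depletion were small at multi-peak ISs. The median log2 fold change of Rif1KO_shMcm6 over Rif1KO_shLacZ was 0.039 (0.027 to 0.049) with an SD of 0.26 over ISs, against -0.010 and 0.32 over all ISs. Past 1.5-fold, 82 of 2393 were higher (3.43%, with 4.82% of all autosomal ISs higher) and 7 were lower (0.293%, with 1.49% of all lower). Among ISs from 1000 to below 1300 bp the lower shares were alike, 0.331% (0.113 to 0.968) for multi-peak and 0.310% (0.201 to 0.478) for other ISs, while the higher shares were 3.53% (2.51 to 4.94) and 5.78% (5.23 to 6.37). On a log2(RPM + 1) scale 2.80% (2.21 to 3.54) of multi-peak ISs and 2.97% of others were higher. Leaving out the ISs of lowest mean density kept all 2393 multi-peak ISs and 93093 of the 124919 others. Of these others 2.98% were higher and 0.912% lower. The higher share of others then lay within the interval of the 3.43% of multi-peak ISs (2.77 to 4.23). The median was 0.087 for multi-peak ISs of the Rif1KO_shMcm6 list alone (0.072 to 0.103), -0.031 for those of the Rif1KO_shLacZ list alone (-0.049 to -0.012) and -0.071 for those of both (-0.107 to -0.027). A negative median was shared by the Rif1KO_shLacZ list as a whole, in which ISs of 2 peaks had -0.064, those of 3 had -0.038 and those of 4 had -0.031, and in the Rif1KO_shMcm6 list the corresponding medians were 0.012, 0.065 and 0.13. Of the 82 higher ISs, 75 came from the Rif1KO_shMcm6 list alone and 7 from the Rif1KO_shLacZ list alone, and all 7 lower ISs came from the Rif1KO_shLacZ list alone. None of the 195 ISs of both lists passed 1.5-fold in either direction. The peak calls of these libraries chose the ISs, so the fold changes are a description and no test was made. Read counts were also higher at these ISs than at others, which narrows the counting error.

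**Figure D4:**
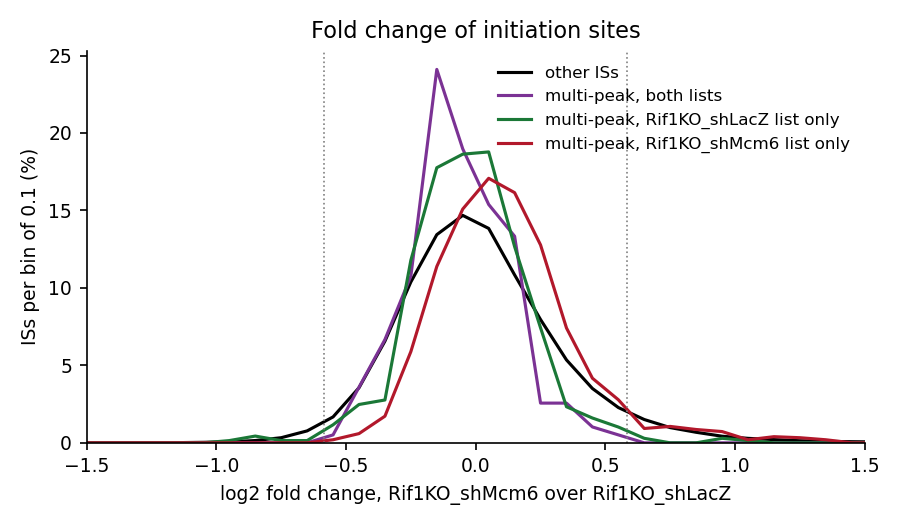
Share of ISs (%, y axis) per 0.1 bin of log2 fold change of Rif1KO_shMcm6 over Rif1KO_shLacZ (x axis), for other ISs in black and for multi-peak ISs by source list in colour; dotted lines mark 1.5-fold. The curve of the Rif1KO_shMcm6 list alone lies to the right (median 0.087) and those of the Rif1KO_shLacZ list alone (-0.031) and of both lists (-0.071) to the left.

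Named ISs gave the extremes. The largest number of peaks was 4, shared by 59 merged ISs, and mean density ranked those named among them. First came a 3556 bp IS at chr11:82743330-82746885 in an intron of Unc45b, a myosin chaperone of muscle, with 4 peaks in the Rif1KO_shMcm6 list and 2 in Rif1KO_shLacZ. It held 2467 reads in Rif1KO_shLacZ (6.87 log2 RPM) and 2364 in Rif1KO_shMcm6 (6.65), a log2 fold change of -0.23 with a counting SE of 0.042, and its GC content of 72.8% was far above the median. A 3870 bp IS at chr6:58478067-58481936, intergenic and 52581 bp from the nearest start site, that of the transporter gene Abcg2, carried 52 motifs in blocks of alternating strand and joined 2 ISs of each list, with 5.81 and 5.97 log2 RPM. The other named ISs with 4 peaks lay in introns of Grid1 (a glutamate receptor subunit gene, chr14:35779380-35781294, 4.79 and 5.12 log2 RPM), Arntl2 (a clock transcription factor, chr6:146756191-146758109, 4.87 and 4.85) and Ak5 (an adenylate kinase, chr3:152229830-152232373, 4.74 and 4.84).

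Among multi-peak ISs at or above their median density, the highest fold changes were at 2 intergenic ISs called in Rif1KO_shMcm6 and in no form in Rif1KO_shLacZ. At chr15:19638388-19639960, 888304 bp from the start of the cadherin gene Cdh10, reads were 244 and 711 in Rif1KO_shLacZ and Rif1KO_shMcm6 (log2 fold change 1.38, counting SE 0.11). At chr3:43747664-43748694, far from the protocadherin gene Pcdh10, they were 205 and 506 (1.14, SE 0.12). The third, at chr15:79291812-79293876, was multi-peak in Rif1KO_shLacZ and had 591 and 1362 reads (1.04, SE 0.071) with no motif at all. The lowest were at the promoter of Synj2, an inositol phosphatase gene (chr17:5940912-5942114, 405 and 282 reads, -0.69, SE 0.11), in an intron of the neurexin gene Nrxn2 (chr19:6425387-6426747, 457 and 342, -0.58, SE 0.10) and at an intergenic IS at chr16:93420961-93422250 (395 and 300, -0.56, SE 0.11).

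In cells without a hairpin, whose libraries did not choose the members, the overlap depended on width. An IS of the WT list overlapped 27.1% of multi-peak ISs (25.3 to 28.9) and 16.5% of others, and an IS of the Rif1KO list 36.3% (34.4 to 38.2) and 21.8%. In all, 40.1% of multi-peak and 24.9% of other ISs were also called in one or the other. With an overlap of 50% of each IS asked for, the shares were 3.76% and 18.6%, in the opposite order. Median widths were 1275 bp for multi-peak and 594 bp for other ISs, beside 417 and 437 bp for 2-peak ISs of WT and Rif1KO. A wide IS can seldom share 50% of its length with one so narrow, so this order moves with width. At an overlap of 1 bp, the order within width classes was the reverse of that over all widths. It was 33.2% of multi-peak ISs from 1000 to below 1300 bp (30.2 to 36.3) against 52.2% of others, 15.4% against 44.3% from 800 to below 1000 bp, and 51.7% against 60.0% from 1300 to below 1700 bp. Only 15 multi-peak ISs overlapped a multi-peak IS of WT (0.627%, 0.380 to 1.03) and 20 one of Rif1KO (0.836%, 0.542 to 1.29), against 0.0833% and 0.195% of others. From 1000 to below 1700 bp, however, the shares were 0.169% and 0.395% for multi-peak ISs and 0.667% and 1.65% for others.

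**Figure D5:**
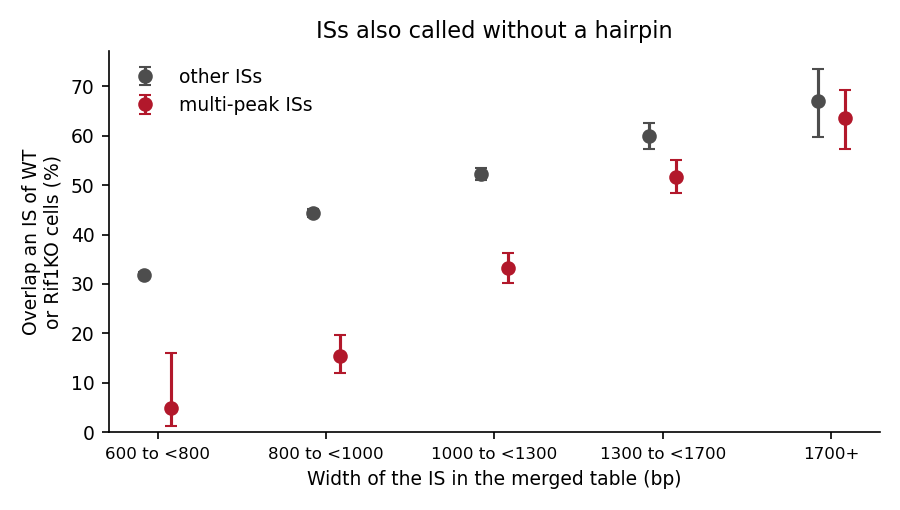
Share of merged ISs (%, y axis) that overlap an IS of the WT or Rif1KO list by width class (bp, x axis), with multi-peak ISs in red and other ISs in grey and Wilson 95% intervals as bars. Multi-peak ISs lie below others of like width, for example 33.2% against 52.2% from 1000 to below 1300 bp, and the intervals overlap at 1700 bp and above.

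Where ISs were called without a hairpin at these loci, loss of RIF1 left them near the table median. Of the multi-peak ISs, 40.1% overlapped an IS of the WT or Rif1KO list, so the comparison covers a part of them. The ISs compared had a median width of 438 bp, beside 447 bp for all autosomal ISs of the Rif1KO and WT table. The 1174 ISs of the Rif1KO and WT table that overlapped a multi-peak IS had median densities of 4.47 log2 RPM in WT and 4.46 in Rif1KO, with 74 and 82 reads, and a median log2 fold change of 0.017 (-0.00080 to 0.034), against 0.016 for all 38954 autosomal ISs. Past 1.5-fold, 26 were higher in Rif1KO (2.21%, 1.52 to 3.23, with 2.27% of all) and 13 lower (1.11%, 0.648 to 1.89, with 2.69% of all). Without chromosomes 10, 15 and 16 the shares were 1.02% and 0.612%, against 0.945% and 1.35%. These tables are pooled, so no replicate test applies.

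The nearest other IS lay farther from multi-peak ISs. The median was 5342 bp (5043 to 5658) against 4417 bp for 2-peak ISs in Rif1KO_shLacZ, and 4551 (4355 to 4698) against 3797 bp in Rif1KO_shMcm6. Merging takes neighboring peaks into 1 IS, so this distance is tied to the choice of the members and is a description. The Rif1KO list's own 298 multi-peak ISs, a different set from the members, were 10641 bp from their neighbors, and its 2-peak ISs 10684 bp.

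Few genes held more than 1 multi-peak IS. Of 21275 autosomal protein-coding genes, 811 carried at least 1 within the body and 1 kb on either side, and 80 carried 2 or more. Counts cover the annotated span of each gene. Spans with 5 were those of the growth factor receptor gene Fgfr2 (3009 kb, among 144 ISs of any kind) and the gene model Gm20388 (4435 kb, among 304). The adhesion receptor gene Bai3 (762 kb, among 35) and the calcium channel subunit gene Cacna2d3 (817 kb, among 51) also had 5. Whether the long spans of Fgfr2 and Gm20388 take in other genes was not tested. Their counts and fold changes are therefore those of the span. Dlgap1, which codes for a postsynaptic scaffold protein, and Ptprd, a receptor phosphatase gene, had 4 each. Ak5, Csmd3, Dlgap4 and Eif4e3 were ranked from the genes with 3, for Ak5 among 14 ISs in 205 kb. They are not all the genes with 3, since Nrxn3 for example had 3 as well. The multi-peak ISs within 1 annotated span varied in log2 fold change. All were above 0 in Bai3 (0.093 to 0.58, median 0.30), Ptprd (0.17 to 0.95, median 0.29) and Csmd3 (0.23 to 0.80, median 0.54). Those of the other 7 ranked genes lay on both sides of 0: Cacna2d3 from -0.10 to 0.29 (median 0.18), Gm20388 from -0.11 to 0.79 (0.16), Ak5 from -0.26 to 0.20 (0.10), Fgfr2 from -0.16 to 0.17 (0.0079), Dlgap1 from -0.23 to 0.31 (-0.056), Dlgap4 from -0.086 to 0.32 (-0.052) and Eif4e3 from -0.24 to 0.030 (-0.056).

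Few promoters of the listed gene groups carried a multi-peak IS, 1 or 2 per list, beside 176 of 21275 autosomal protein-coding genes (0.827%), and nothing is read from shares based on so few. Among developmental transcription factors it was 2 of 79 (2.53%), Irx5 (homeobox, 3.67 and 4.03 log2 RPM) and Tbx3 (T-box, 4.20 and 4.23). Among B cell transcription factor and receptor genes it was 1 of 33 (3.03%), Cd72, a B cell co-receptor (2.73 and 3.19), with 3 genes carrying one in the body. Among licensing and firing genes it was 1 of 32 (3.13%), Gins1, a subunit of the active helicase (3.55 and 3.54), with 2 in the body. Among large genes it was 1 of 20 (5%), Magi2, a scaffold protein gene (3.65 and 3.84), while 13 of 20 carried one in the body, against 811 of 21275 genes (3.81%), a count that moves with gene length. Fold changes at these 5 promoters were 0.36 (counting SE 0.11), 0.024 (0.10), 0.46 (0.16), -0.0029 (0.13) and 0.19 (0.12), none past 1.5-fold.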

How the data were processed

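Short nascent strands were sequenced from 8 libraries in 4 groups of 2. Per the methods and the processing notes, the authors trimmed reads with Trim Galore 0.6.4 and cutadapt 2.6, aligned them to mm9 with Bowtie 1.2.3 keeping unique alignments, called peaks in each replicate without an input library, intersected replicates with bedtools and kept sites within clusters. Sequence that cannot be aligned uniquely and sites outside clusters are therefore missing. The deposited lists give counts of peak names per IS (a score of merging, not of reads). The deposited tables hold log2 RPM, 1 pooled value per condition, and the authors' fold change categories, which were not used.

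On the linear scale each deposited value was a whole multiple of 1 read, within 0.01, for 100% of ISs, which gave the pooled reads. Counting SEs of a log2 fold change came from these reads. List ISs were joined to table ISs by an overlap of at least 1 bp with bedtools 2.31.1. Python 3.11.15, pandas 2.3.3, numpy 2.4.6, scipy 1.17.1, pysam 0.24.0 and matplotlib 3.10.9 were used with the NCBIM37 genome and its GENCODE gene models (22380 protein-coding genes). Shares have Wilson intervals and medians order-statistic intervals, at 95%, which treat ISs as independent. The code was tested on simulated data. Since each condition has 1 pooled value, no count model or test across replicates was run. No columns of single samples were left out.

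The members and gene lists were chosen with earlier results of these data known. Named ISs were the 5 with the most peaks (ties by mean density), and the 3 highest and 3 lowest fold changes among those at or above the median density. Named genes were 10 with the most multi-peak ISs (ties by the summed number of peaks) and listed genes with one at a promoter. The last places of these 10 were still tied, and genes such as Nrxn3 with the same counts were not ranked. The motif strand counts, gaps and windows were chosen after seeing the data. ISs on 1 chromosome are counted but not named.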

Additional observations from a re-analysis of the deposited data

How the results depend on the processing

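Of 76 values recomputed under an alternative, 40 stayed within the 95% interval of the main value, 35 moved outside it and 1, whose main interval excluded 0, changed sign. The fold change after RIF1 loss, whose main interval included 0, also changed sign under 2 of the alternatives that moved it, given below. No paired analysis was possible because each table holds 1 pooled value per condition, and for the same reason leaving out a replicate could not be run.

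With 4 or more distinct peaks (59 merged ISs), the width was 1742 bp, control density 4.09 log2 RPM, median fold change after MCM6 depletion 0.11, higher 1.69% and lower 0%, GC 45.0%, motif share 94.9%, promoters 8.47%, intergenic 67.8%, called without a hairpin 44.1%, multi-peak there 0%, and fold change after RIF1 loss -0.0060. The shares of such ISs were 0.0131% and 0.0422%, and distances to the next IS 6323 and 4772.5 bp (Rif1KO_shLacZ and Rif1KO_shMcm6 lists).

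Multi-peak ISs of the Rif1KO_shLacZ list gave a density of 3.86, a median fold change of -0.038 (reversed), higher 0.794% and lower 0.794%, promoters 8.39%, called without a hairpin 47.6% and multi-peak there 2.15%. Those of the Rif1KO_shMcm6 list gave 3.71, 0.069, 4.40% and 0%, and 37.7% called without a hairpin. The median fold change thus has the opposite sign when all multi-peak ISs of the Rif1KO_shLacZ list, and no others, are taken.

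Asking that list and table ISs share 50% of each other's length gave 3.76% called without a hairpin (18.6% of other ISs), 0.752% multi-peak there and a fold change after RIF1 loss of -0.0060. A 2-fold threshold gave 0.794% higher and 0% lower, centring on the table median a fold change of 0.049, a start-site window of 200 bp 4.72% at promoters, and the class from 1000 to below 1300 bp 33.2% called without a hairpin.

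Depth limits single ISs: the median multi-peak IS had 281 reads in Rif1KO_shLacZ, and narrow ones fewer. The tables pool both replicates, so the spread between them is unknown for densities and fold changes.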
